A study of Mus musculus with 8 samples.

Results

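The interferon regulatory factors (IRFs) are transcription factors that share a DNA-binding domain, and 8 of them, *Irf1*, *Irf2*, *Irf3*, *Irf4*, *Irf5*, *Irf7*, *Irf8* and *Irf9*, were followed here through the transcriptomes of splenic Tregs and Tconvs. They were taken by name, and all 8 were found among the 52636 rows of the table. Tconvs (CD3+CD4+ GFP-) and Tregs (CD3+CD4+ GFP+) had been sorted, 200000 cells for each RNA preparation, from the spleens of mice 6 to 8 weeks of age that report Foxp3 by GFP. The controls were CD27+/- mice. The other mice, named CD70Tg, were CD11c-Cd70tg;CD27+/-, so that both groups carry 1 copy of the CD27 gene and CD70, the ligand of CD27, is made in CD70Tg mice by dendritic cells and other cells in which the CD11c promoter is active. Each of the 4 groups has 2 libraries, 8 in all, so that the effect of CD70Tg can be read within each subset and compared between them. The labels do not say whether the libraries of a group came from separate mice, and the p-values therefore measure only the spread between these samples.

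IRFs were first known as regulators of interferon genes. IRF1 is induced by interferon-γ and activates genes of antigen presentation and the guanylate-binding proteins, while IRF2 binds the same sites and is mostly an antagonist of IRF1. IRF3 and IRF7 are phosphorylated by TBK1 and IKKε after nucleic acids have been sensed, IRF5 acts after Toll-like receptors and MyD88, and IRF9 is the DNA-binding part of the complex that carries the type I interferon signal. IRF4 and IRF8 are expressed mainly in hematopoietic cells and bind DNA together with partners such as PU.1 or BATF and JUN. In T lymphocytes, IRF4 is induced by antigen receptor signals and is needed by effector Tregs, whereas IRF8 is best known from dendritic cells, macrophages and B cells.

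The values are reads per 20 M, rounded up by the authors, so that 20 corresponds to a CPM of 1. The libraries held between 1.91 and 33.28 M reads on genes as judged from the step between low values, the 4 Treg libraries being the shallower ones, and 3 reads correspond to 1.8 to 31.3 on this scale. The lowest value of any member was 304, so that none was near this limit. *Foxp3* separated the sorts, at 1039 to 1497 in the 4 Tconv libraries and at 19769 to 21367 in the 4 Treg libraries. Libraries of a group are called first and second by their order in the table. A gene is said to have risen, fallen or changed when its Benjamini-Hochberg adjusted p-value was under 0.05 in limma on log2(value + 5), fitted over 12816 genes. All 8 members were among these.

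*Irf1*, *Irf2* and *Irf8* rose with CD70Tg in Tregs and in Tconvs, *Irf2* in Tregs only at the threshold (limma adjusted p = 0.049, lost in 10 of 17 other settings). The promoter windows of these 3 genes are shown first, since they share a feature that was not used to choose them. In the RefSeq windows (GRCm38.p6, 250 bases before to 50 after an annotated start, 11 windows for the 8 members) the letters TTCNNNGAA of an interferon-γ-activated site (GAS) were found only in these 3, in their first window, and in none of the windows of the other 5 members. This was seen with the changes known and carries no test. Over all 32817 windows, 8.29% hold such a match. The letters GAAANNGAAA of an interferon-stimulated response element (ISRE) were found in *Irf2* alone, against 3.43% of all windows, and a κB motif in *Irf1* and *Irf2*, against 8.46%. All were searched on both strands, and none of the matches overlapped another. The 250 bases before the start are given 5′ to 3′ on the plus strand, on which all 3 genes lie, at chr11:53769764-53770013 for *Irf1*, chr8:46739495-46739744 for *Irf2* and chr8:120736108-120736357 for *Irf8*. Capitals mark the matches.
Irf1: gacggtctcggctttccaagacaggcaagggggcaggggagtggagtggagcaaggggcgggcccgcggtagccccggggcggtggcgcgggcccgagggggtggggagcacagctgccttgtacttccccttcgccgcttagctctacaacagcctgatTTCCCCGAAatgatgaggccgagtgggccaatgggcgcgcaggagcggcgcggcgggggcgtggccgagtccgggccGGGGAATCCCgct
Irf2: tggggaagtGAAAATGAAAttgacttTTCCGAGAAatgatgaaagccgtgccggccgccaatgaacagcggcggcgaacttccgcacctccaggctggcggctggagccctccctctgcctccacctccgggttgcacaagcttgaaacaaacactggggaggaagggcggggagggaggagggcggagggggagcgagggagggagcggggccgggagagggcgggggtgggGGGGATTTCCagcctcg
Irf8: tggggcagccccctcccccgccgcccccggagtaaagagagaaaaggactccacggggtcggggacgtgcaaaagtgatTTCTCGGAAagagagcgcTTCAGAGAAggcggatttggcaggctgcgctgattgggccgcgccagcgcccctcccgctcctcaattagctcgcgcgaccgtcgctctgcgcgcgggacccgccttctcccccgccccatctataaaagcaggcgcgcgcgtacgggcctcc
In *Irf1* the GAS match begins 90 bases before the start and the κB match 13 bases before it. In *Irf2* an ISRE match at 241 bases is followed by a GAS match at 224 and a κB match at 17 bases. *Irf8* holds a pair of GAS matches, at 171 and 153 bases before its start. A match is a description of the letters and not of a bound site, and the absence of one says only that these letters are not in the window.

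**Figure D1:**
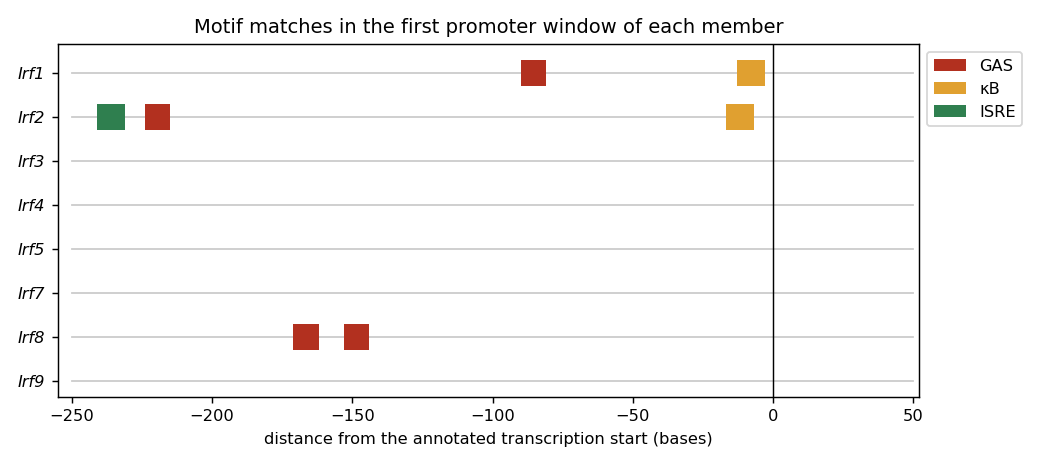
Position of GAS, ISRE and κB matches relative to the annotated transcription start (x axis, bases) in the first promoter window of each of the 8 members (rows). Only the rows of *Irf1*, *Irf2* and *Irf8* hold a match, with 2 GAS matches in *Irf8*.

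In Tregs, 3 of the 8 members rose with CD70Tg, where 3.94% of all genes tested did, and none fell, where 3.46% of all genes did. In Tconvs, 4 of the 8 rose, against 6.82% of all genes, and none fell, against 1.99%. A log2 fold change over 1 as well was reached by 1 member, *Irf8*, in each subset (all genes 2.53% in Tregs and 4.07% in Tconvs). The median log2 fold change of the members was 0.28 in Tregs and 0.44 in Tconvs, and that of all genes -0.05 and 0.01. The count depended on the library pairs: without any 1 library it lay between 2 and 4 in Tregs and between 2 and 6 in Tconvs. With no minimum value asked of a gene it was 1 in Tregs and 0 in Tconvs. Groups of 2 libraries that do not overlap are common in these data. Both CD70Tg libraries lay above both controls for 4 of the 8 members in Tregs, against 22.5% of all genes tested, and for 5 in Tconvs, against 23.7%. They lay under both controls for 3 members in Tregs, against 31.2%, and for 0 in Tconvs, against 21.4%.

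**Figure D2:**
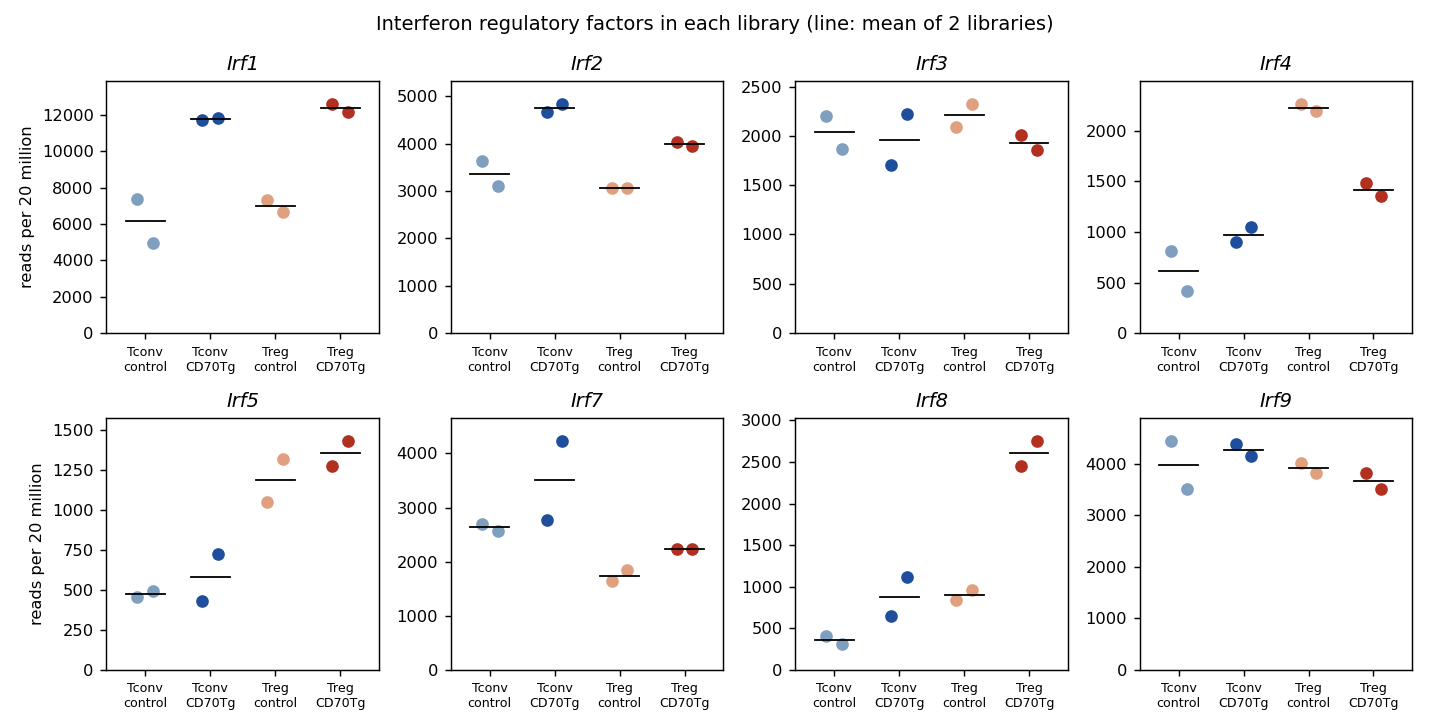
Values of the 8 members in each of the 8 libraries (y axis, reads per 20 M, starting at 0; points are libraries, lines the mean of 2). *Irf1* lies between 4970 and 7401 in the control libraries and between 11721 and 12612 in the CD70Tg libraries, and *Irf4* is highest in control Tregs, at 2267 and 2194.

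*Irf8* changed the most. It stood at 403 and 304 in control Tconvs and at 643 and 1117 in CD70Tg Tconvs. In Tregs it stood at 835 and 964 in controls and at 2456 and 2757 in CD70Tg mice. Every CD70Tg library thus lay above both control libraries of its subset, and the first CD70Tg Tconv library, at 643, was still under both control Treg libraries. The increase was 2.89-fold in Tregs (log2 fold change 1.53 ± 0.21, SE, limma adjusted p = 0.000252) and 2.40-fold in Tconvs (1.26 ± 0.21, limma adjusted p = 0.000733). The change did not differ detectably between the subsets (difference 0.27 on the log2 scale, 95% interval -0.36 to 0.90, limma adjusted p = 0.821). In Tregs the call held under all 17 other settings, at log2 fold changes of 1.43 to 1.63. In Tconvs it was lost only when no minimum value was asked of a gene (limma adjusted p = 0.072), but its size depended on single libraries, from 0.87 without the second CD70Tg Tconv library to 1.66 without the first. *Irf8* was also higher in Tregs than in Tconvs, by 1.35 (limma adjusted p = 8.1e-05) in controls and by 1.61 (1.83e-05) in CD70Tg mice, both on the log2 scale.

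Since IRF8 is abundant in other leukocytes, their markers are given beside it. Per the study's methods, antibodies and magnetic beads had taken out B cells, macrophages, dendritic cells, NK cells, granulocytes and CD8+ cells before the sort, with an anti-CD25 antibody added for Tconvs only. In bulk samples fewer cells of a type and less RNA per cell cannot be told apart. The summed values of 7 dendritic cell markers were 76 to 147 in control and 195 to 347 in CD70Tg Tconvs, and 109 to 156 in control and 378 to 410 in CD70Tg Tregs. The sums were thus higher with CD70Tg in both subsets, as *Irf8* was. Of these 7, *Itgax* and *Zbtb46* reached the minimum for the test, *Zbtb46* only through the 2 CD70Tg Treg libraries, so that no test is given for it. *Zbtb46*, the transcription factor of classical dendritic cells, was at 25 and 27 in control and at 209 and 191 in CD70Tg Tregs, and at 9 and 5 and then at 15 and 38 in Tconvs. *Itgax*, which encodes CD11c, was at 49 and 84 and then at 74 and 104 in Tregs (0.42, limma adjusted p = 0.63), and at 31 and 57 and then at 101 and 236 in Tconvs (1.76, limma adjusted p = 0.015). The other 5 were too low to be tested. In Tregs *Flt3* was at 10 and 27 in control and 32 and 22 in CD70Tg mice, *Xcr1* at 10 and 18 and then 63 and 33, *Clec9a* at 5 and 0 and then 21 and 22, *Siglech* at 0 and 0 and then 11 and 6, and *Cd209a* at 10 and 0 and then 0 and 0. In Tconvs *Flt3* was at 13 and 17 in control and 12 and 7 in CD70Tg mice, *Siglech* at 6 and 28 and then 0 and 3, *Cd209a* at 4 and 9 and then 0 and 2, *Clec9a* at 6 and 5 and then 18 and 5, and *Xcr1* at 7 and 26 and then 49 and 56. The mean was higher with CD70Tg for 6 of the 7 markers in Tregs, all but *Cd209a*, and for 4 of the 7 in Tconvs. This count carries no test. In the first and second CD70Tg Treg libraries, 3 reads correspond to 31.3 and 16.3. *Siglech* lies under both of these values, *Clec9a* under the first and *Flt3* close to them, so that their means rest on few reads. The 6 macrophage and monocyte markers summed to 2784 to 2811 in control and 2792 to 2960 in CD70Tg Tregs, and to 1516 to 1543 and 1135 to 1456 in Tconvs. Of the 5 tested, *Itgam* rose in Tregs and fell in Tconvs, *Csf1r* fell in Tregs and *Cd68* rose in Tconvs. The 6 B cell markers summed to 380 to 493 in control and 470 to 494 in CD70Tg Tregs, with 32 and 6 for *Pax5* in the latter, and to 250 to 365 and 177 to 282 in Tconvs, and none of the 3 tested changed. The 2 CD8 markers summed to 681 to 720 in control and 1563 to 1590 in CD70Tg Tconvs, where *Cd8b1* rose. The same sums were 317 to 417 in control and 631 to 660 in CD70Tg Tregs, where *Cd8b1* did not pass. *Cd8a* was at 17 and 28 in control and 508 and 608 in CD70Tg Tconvs, and at 25 and 71 and then 262 and 223 in Tregs. It reached the minimum only with CD70Tg libraries, so that no test is given for it. The 3 NK cell markers summed to 405 to 423 in control and 71 to 75 in CD70Tg Tconvs, and to 36 to 64 and 0 to 11 in Tregs. *Klrb1c*, the only one of them tested, fell in Tconvs (log2 fold change -2.45, limma adjusted p = 0.0028) and in Tregs (limma adjusted p = 0.0035), where its CD70Tg values of 0 and 11 lie under those of 3 reads. The 3 plasma cell markers summed to 74 at most in any library. The part of other cells in the *Irf8* values was not tested.

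*Irf1* was the most abundant member per kb of exon in every library, and it rose in both subsets. It was at 7401 and 4970 in control and at 11721 and 11829 in CD70Tg Tconvs. In Tregs it was at 7318 and 6656 in control and at 12612 and 12185 in CD70Tg mice. The 4 CD70Tg libraries were close to each other whatever the subset, and all lay above all 4 control libraries. The fold change was 1.78 in Tregs (log2 0.83 ± 0.15, SE, limma adjusted p = 0.00258) and 1.94 in Tconvs (0.96 ± 0.15, limma adjusted p = 0.000384). Both calls were lost with no minimum value (limma adjusted p = 0.066 and 0.051). The difference between the subsets was -0.13 (95% interval -0.57 to 0.32, limma adjusted p = 0.896). Tregs and Tconvs did not differ detectably in *Irf1*, with log2 differences of 0.20 (95% interval -0.11 to 0.52) in controls and 0.07 (-0.24 to 0.39) in CD70Tg mice. In controls this rests on the spread of the Tconv libraries, since *Irf1* was higher in Tregs without the first of them (0.49, limma adjusted p = 0.0099) and -0.09 without the second.

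*Irf2* changed less. Its values were 3628 and 3100 in control and 4665 and 4837 in CD70Tg Tconvs, and 3072 and 3052 in control and 4034 and 3959 in CD70Tg Tregs. In each subset the CD70Tg libraries were above the control libraries, with no overlap. It rose 1.42-fold in Tconvs (log2 0.50 ± 0.11, SE, limma adjusted p = 0.00814) and 1.30-fold in Tregs (0.38 ± 0.11, limma adjusted p = 0.049). The Treg call lies at the threshold: it was lost in 10 of the 17 other settings, among them without any 1 of the 4 Treg libraries (limma adjusted p 0.17 to 0.27). The Tconv call was lost without the second control library (0.39, limma adjusted p = 0.11) and with no minimum value (0.063). The ratio of *Irf1* to its antagonist *Irf2*, per kb of exon, was 3.79 and 2.98 in control and 4.67 and 4.55 in CD70Tg Tconvs, and 4.43 and 4.06 in control and 5.82 and 5.73 in CD70Tg Tregs. It was higher in the CD70Tg libraries of each subset than in their controls.

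*Irf4* was the member whose change differed between the subsets. It was at 808 and 413 in control and at 899 and 1045 in CD70Tg Tconvs, and at 2267 and 2194 in control but at 1484 and 1354 in CD70Tg Tregs. The libraries of each pair of groups did not overlap, with CD70Tg above control in Tconvs and under it in Tregs. In Tconvs *Irf4* rose 1.67-fold (log2 0.74 ± 0.22, SE, limma adjusted p = 0.0395). In Tregs the log2 fold change was -0.65 (95% interval -1.11 to -0.20) and did not pass (limma adjusted p = 0.0774). The difference between these changes was -1.39 on the log2 scale (95% interval -2.04 to -0.75, limma adjusted p = 0.0334), and it was the only member of the 8 with such a difference, against 1.02% of all genes. For the other 7 the adjusted p-values of the difference were 0.737 to 0.983.

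These calls for *Irf4* hang on single libraries. The pair of control Tconv libraries differed most: without the second, at 413, the Tconv change was 0.26 (limma adjusted p = 0.54), and without the first it was 1.22 (6.3e-05). The Tconv call was also lost when the Tconv libraries were fitted alone (limma adjusted p = 0.078), with no minimum value (0.35), without the second CD70Tg Tconv library (0.63, limma adjusted p = 0.25) and without any 1 Treg library, which leaves the values as they are but not the estimate of the spread (limma adjusted p 0.05 to 0.054). The Treg decrease passed without the first or the second control Tconv library (limma adjusted p = 0.0056 and 0.005) and when the Treg libraries were fitted alone (0.00049). The difference kept its sign in all 16 other settings, at -1.87 to -0.91, but no longer passed in 10 of them. Among these were the fits without any 1 Treg library (limma adjusted p 0.088 to 0.11) and without the second CD70Tg Tconv library (0.15).

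**Figure D3:**
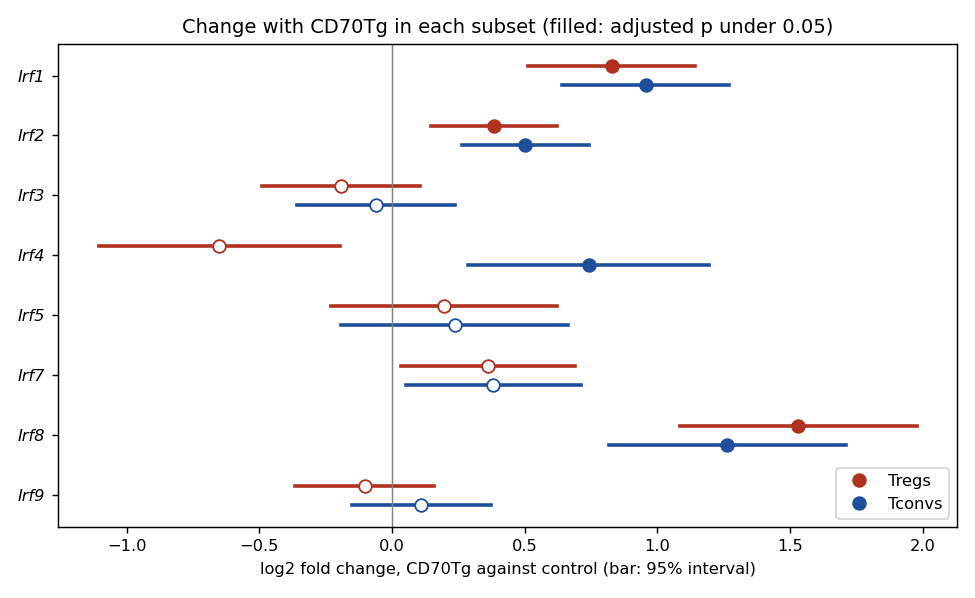
Log2 fold change of each member (rows) with CD70Tg against control in Tregs (red) and Tconvs (blue), with 95% intervals from limma as bars and filled points for an adjusted p-value under 0.05. *Irf4* lies at -0.65 in Tregs and 0.74 in Tconvs, and *Irf8* lies farthest to the right, at 1.53 and 1.26.

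Of the members downstream of nucleic acid sensors, *Irf7* was at 2699 and 2566 in control and at 2778 and 4237 in CD70Tg Tconvs, and at 1645 and 1839 in control and at 2236 and 2235 in CD70Tg Tregs. The CD70Tg libraries were the higher ones in each subset, although the first one in Tconvs was close to the controls. The log2 fold changes, 0.36 in Tregs (limma adjusted p = 0.186) and 0.38 in Tconvs (0.171), did not pass. Without the first CD70Tg Tconv library the Tconv value was 0.69 and passed (limma adjusted p = 0.0021), and without the second it was 0.08 (0.84). The Treg value passed when the Treg libraries were fitted alone (limma adjusted p = 0.026) and without either of the CD70Tg Tconv libraries. In the other 14 settings it did not pass. *Irf7* was lower in Tregs than in Tconvs, by a log2 difference of -0.60 in controls (limma adjusted p = 0.00529) and of -0.62 in CD70Tg mice (0.00471). The first of these was lost without the first control Treg library (-0.52, limma adjusted p = 0.051) and the other without the second CD70Tg Tconv library (-0.31, limma adjusted p = 0.071), and both with no minimum value (0.061 and 0.054).

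*Irf5* was higher in Tregs than in Tconvs. It was at 459 and 492 in control and at 433 and 725 in CD70Tg Tconvs, and at 1053 and 1323 in control and at 1275 and 1436 in CD70Tg Tregs. The Treg libraries all lay above the Tconv libraries, while CD70Tg and control libraries overlapped in both subsets. The difference between Tregs and Tconvs was 1.30 on the log2 scale in controls (limma adjusted p = 7.2e-05) and 1.26 in CD70Tg mice (0.000126). The macrophage and monocyte markers summed higher in Tregs too, at 2784 to 2811 against 1516 to 1543 in controls. In CD70Tg mice the sums were 2792 to 2960 against 1135 to 1456. Of these markers, *Lyz2* and *Itgam* did not differ detectably between the control subsets. The part of other cells in the *Irf5* values was not tested. The change with CD70Tg was 0.20 in Tregs (95% interval -0.23 to 0.62) and 0.24 in Tconvs (-0.19 to 0.66), and did not pass in either. In Tconvs it was 0.60 without the first CD70Tg library, which passed (limma adjusted p = 0.038), and -0.13 without the second. Of the exons of *Irf5*, 14.1% are shared with *Tnpo3* on the opposite strand, and strand was not stated for the counting.

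*Irf3* and *Irf9* did not pass with CD70Tg in either subset. *Irf3* was at 2207 and 1871, 1709 and 2220, 2092 and 2325, and 2007 and 1855 in control Tconvs, CD70Tg Tconvs, control Tregs and CD70Tg Tregs. *Irf9* was at 4451 and 3514, 4391 and 4152, 4023 and 3832, and 3814 and 3502 in the same order. For *Irf3* the 95% interval of the log2 fold change was -0.49 to 0.11 in Tregs and -0.36 to 0.24 in Tconvs. For *Irf9* it was -0.37 to 0.16 and -0.15 to 0.37. A change of 1.5-fold in either direction lies outside all 4 intervals. Neither gene differed detectably between Tregs and Tconvs.

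Between the subsets, 3 of the 8 members were higher in control Tregs than in control Tconvs (*Irf4*, *Irf5* and *Irf8*), against 27.5% of all genes, and 1 was lower (*Irf7*), against 18.4%. *Irf4* showed the largest such difference, 3.83-fold (log2 1.94 ± 0.22, SE, limma adjusted p = 2.37e-06). In CD70Tg mice 2 were higher in Tregs (*Irf5* and *Irf8*), against 22.6% of all genes, and 1 was lower (*Irf7*), against 20.1%. The difference in *Irf4* was 0.55 there (limma adjusted p = 0.0502) and passed in 5 of the 17 other settings: without the first or the second control Tconv library (0.0038 and 0.0033), with a pseudocount of 20 (0.044), with a value above 10 in every library (0.048) and with only the CD70Tg libraries fitted (0.0099). None of these shares of 8 stands far from that of all genes. Median-of-ratios factors shift all genes by -0.13 in the comparison of the control subsets, and under them *Irf2* was lower in Tregs too, by -0.26 in controls (limma adjusted p = 0.04) and by -0.31 in CD70Tg mice (0.02).

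Put in order, *Irf4* was highest in control Tregs, then in CD70Tg Tregs, CD70Tg Tconvs and control Tconvs, and only the last of these steps passed the test. *Irf8* was highest in CD70Tg Tregs, followed by control Tregs and CD70Tg Tconvs, whose libraries overlapped, and was lowest in control Tconvs. For *Irf1* the order was CD70Tg before control, and in controls the subsets overlapped. *Irf2* was highest in CD70Tg Tconvs, followed by CD70Tg Tregs, control Tconvs and control Tregs, with no overlap, although the subsets did not pass as different. For *Irf7* the order was CD70Tg Tconvs, control Tconvs, CD70Tg Tregs and control Tregs, and these groups did not overlap, although CD70Tg did not pass as different from control. Among all genes the Treg libraries lay above the Tconv libraries without overlap for 42.7% and under them for 33.5% in controls, and for 34.2% and 35.0% in CD70Tg mice.

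Levels of different genes can be set side by side per kb of exon. *Irf1* made up 32.5% to 37.9% of the summed level of the 8 members in the 4 control libraries and 43.8% to 48.7% in the 4 CD70Tg libraries. *Irf8* was lowest of the 8 in control Tconvs (50.1 ± 9.92 per kb, SD, n = 2), in CD70Tg Tconvs (125 ± 47.5) and in control Tregs (127 ± 12.9). In CD70Tg Tregs *Irf4* was lowest (289 ± 18.7), under *Irf8* (369 ± 30.2). The ratio of *Irf8* to *Irf4* per kb was 0.347 and 0.512 in control and 0.497 and 0.743 in CD70Tg Tconvs, which overlapped. It was 0.256 and 0.305 in control Tregs and 1.15 and 1.42 in CD70Tg Tregs, the only group in which *Irf8* exceeded *Irf4*. The ratio of *Irf7* to *Irf9* was 0.583 and 0.685 in control and 0.836 and 0.910 in CD70Tg Tregs, and 0.865 and 1.04 in control and 0.902 and 1.46 in CD70Tg Tconvs. It was higher with CD70Tg in Tregs, and overlapped in Tconvs.

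**Figure D4:**
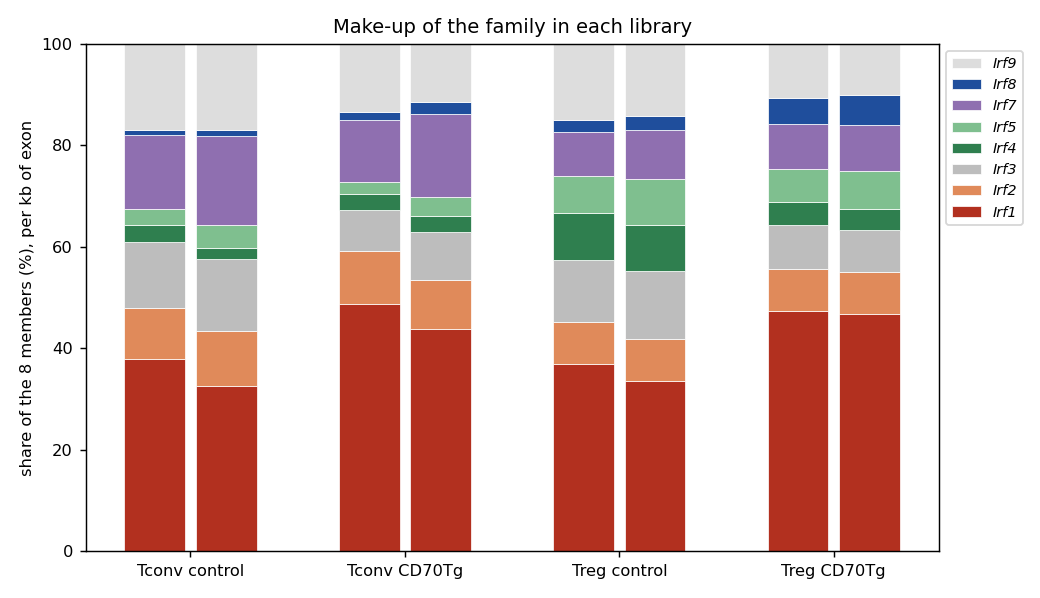
Share of each member in the summed level of the 8 members, per kb of exon (y axis, percent), in each library (2 bars a group). The share of *Irf1* is 32.5% to 37.9% in the control bars and 43.8% to 48.7% in the CD70Tg bars, and that of *Irf4* in Tregs goes from 9.27% and 8.95% to 4.52% and 4.22%.

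The genes around the family are given from lists that were fixed with earlier results of these data known. Among interferon ligands, *Ifnb1*, *Ifna1* and *Ifna4* were at 0 in all 8 libraries, which allows values up to that of 3 reads. *Ifng*, the interferon-γ gene, was at 105 and 72 in control and at 718 and 2111 in CD70Tg Tconvs (log2 fold change 3.75, limma adjusted p = 6.9e-06), and at 64 and 71 and then at 168 and 300 in Tregs (1.67, limma adjusted p = 0.016). All CD70Tg libraries lay above their controls. Of 8 genes of interferon receptors, JAK kinases and *Stat2*, 1 rose in Tregs and none fell, and 3 rose and 1 fell in Tconvs. Of all genes 3.94% rose and 3.46% fell in Tregs, and 6.82% rose and 1.99% fell in Tconvs. *Ifngr1*, a chain of the interferon-γ receptor, rose in both, by 1.12 in Tregs and by 1.04 in Tconvs on the log2 scale. In Tconvs *Stat2* and *Jak2* rose as well and *Ifngr2*, the other chain, fell by 0.59. Without the second CD70Tg Tconv library 1 of the 8 rose in Tconvs, and without either CD70Tg Tconv library 2 rose in Tregs.

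Of 13 sensors, adaptors and kinases that act before IRF3, IRF5 and IRF7, none rose in either subset, and 1 fell in Tregs, which is close to the shares of all genes (3.94% and 6.82% rose in Tregs and Tconvs, and 3.46% fell in Tregs). This was *Tlr7*, a receptor for single-stranded RNA, at 835 and 732 in control and 398 and 403 in CD70Tg Tregs (log2 fold change -0.96, limma adjusted p = 0.0051). The list had a median of 0.09 in Tregs and 0.03 in Tconvs.

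Of 12 DNA-binding partners and corepressors, 1 rose in Tregs (*Jun*, log2 fold change 1.33, limma adjusted p = 0.048) and 4 in Tconvs, and none fell, where 3.94% and 6.82% of all genes rose. The single Treg call is near that share. The 4 were *Jun* (1.95), *Junb* (0.97), *Ikzf3* (0.89) and *Batf* (0.87, limma adjusted p = 0.0047). *Batf*, the partner of IRF4 in activated T cells, was at 1565 and 1099 in control and at 1919 and 2992 in CD70Tg Tconvs, and at 2320 and 2264 in control and at 3125 and 3067 in CD70Tg Tregs, where its change of 0.43 did not pass (limma adjusted p = 0.17). The Treg call of *Jun* was lost without any 1 Treg library, when 0 of the 12 rose, while 3 rose without either CD70Tg Tconv library. In Tconvs 2 rose without the second control library and 1 without the second CD70Tg library. *Spi1*, which encodes PU.1, was at 49 and 66 in control and at 157 and 126 in CD70Tg Tregs (1.23, limma adjusted p = 0.11).

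Of 19 targets of IRF1, 13 rose in Tregs and 17 in Tconvs, and none fell, with median log2 fold changes of 0.64 and 1.01. Of all genes 3.94% and 6.82% rose, with medians of -0.05 and 0.01. They include the guanylate-binding protein *Gbp2* (1.22 in Tregs and 1.99 in Tconvs), the immunity-related GTPase *Igtp* (1.11 and 1.45), the immunoproteasome subunit *Psmb9* (0.78 and 0.51), the peptide transporter *Tap1* (0.73 and 0.78) and *Cd274*, the gene of PD-L1 (0.91 and 1.40). *Gbp2* was at 2897 and 2537 in control and at 9266 and 12535 in CD70Tg Tconvs, and at 4154 and 3753 in control and at 8485 and 9956 in CD70Tg Tregs. The change was smaller in Tregs for 2 of the 19, where 1.02% of all genes differed in either direction. These were *Gbp3* (difference -1.32, limma adjusted p = 0.0044) and *Il12rb1* (-1.27, limma adjusted p = 0.041). The Treg change of *Il12rb1*, 0.66, did not itself pass (limma adjusted p = 0.057). In controls *Gbp3* and *Il12rb1* were higher in Tregs than in Tconvs, by 2.97 and 2.02 on the log2 scale. Without 1 Treg library 6 to 8 rose in Tregs, and without the second control or the second CD70Tg Tconv library 11 rose in Tconvs.

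Of 15 targets of the IRF9 complex, 3 rose in Tregs (*Oasl2*, *Zbp1* and *Oas1a*) and 4 in Tconvs (*Oasl2*, *Mx1*, *Ifit3* and *Zbp1*), and none fell, where 3.94% and 6.82% of all genes rose. Their medians were 0.23 and 0.35, against -0.05 and 0.01 for all genes. *Zbp1*, a sensor of Z-form nucleic acid, was at 4018 and 3670 in control and at 5580 and 6286 in CD70Tg Tregs (0.62, limma adjusted p = 0.0069). *Isg15*, a ubiquitin-like protein and a standard marker of type I interferon, had log2 fold changes of -0.09 in Tregs and -0.03 in Tconvs and did not pass (limma adjusted p = 0.83 and 0.95). In Tregs 0 rose without the second control or the second CD70Tg library and 1 without the first control library. In Tconvs 1 rose without the second control or the second CD70Tg library and 7 without the first CD70Tg library. The 2 lists were not tested against each other.

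**Figure D5:**
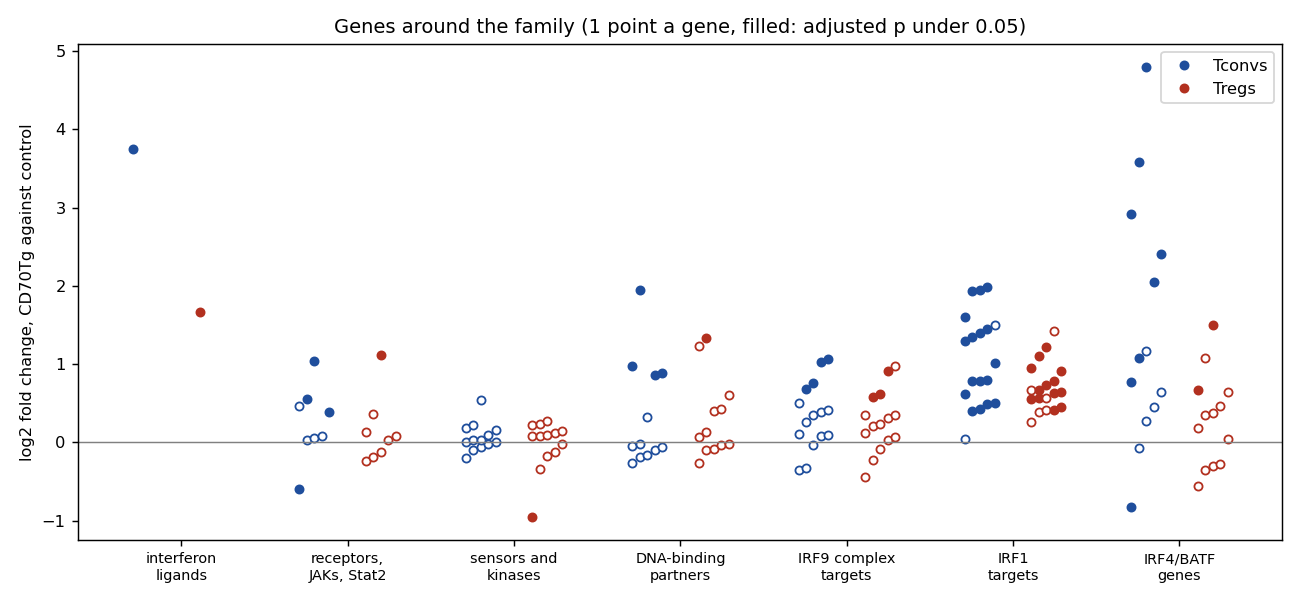
Log2 fold change with CD70Tg (y axis) of each tested gene of 7 lists around the family, in Tconvs (blue) and Tregs (red), filled where the adjusted p-value from limma was under 0.05. Of the 19 targets of IRF1, 17 points are filled in Tconvs and 13 in Tregs. Of the 13 sensors and kinases 1 point is filled, that of *Tlr7* in Tregs at -0.96.

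Of 13 genes tied to IRF4 and BATF in effector T cells, 7 rose and 1 fell in Tconvs, and 2 rose and none fell in Tregs, with medians of 1.07 and 0.35. Of all genes 6.82% rose and 1.99% fell in Tconvs and 3.94% rose in Tregs. In Tregs *Klrg1*, a receptor of differentiated cells, rose by 1.50 (limma adjusted p = 0.0056), and *Prdm1*, which encodes Blimp-1, by 0.67 (0.015). *Prdm1* was at 1582 and 2080 in control and at 2853 and 2909 in CD70Tg Tregs, and at 239 and 245 and then at 911 and 1129 in Tconvs. *Il10* was at 30 and 3 in control and at 340 and 629 in CD70Tg Tconvs, and at 253 and 307 in control and at 512 and 691 in CD70Tg Tregs. The log2 fold change in Tregs minus that in Tconvs was -2.45 for *Il1rl1*, -2.09 for *Klrg1*, -1.38 for *Prdm1* and -1.05 for *Ctla4*, with limma adjusted p-values of 0.0044 to 0.041. The difference passed for *Il10* too (limma adjusted p = 0.011), but its size is not given, since the second control Tconv value, 3, lies under that of 3 reads in its library (6.3). These were 5 of the 13, where 1.02% of all genes differed in either direction. For *Ctla4* the log2 fold changes had opposite signs, -0.28 in Tregs, which did not pass, and 0.78 in Tconvs. The 2 Treg calls became 0 without the first control Treg library and 1 without either CD70Tg Treg library. The control values of these genes differed: 11 of the 13 were higher in control Tregs than in control Tconvs, against 27.5% of all genes.

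For the members that rose in at least 1 subset, the genes with the most similar course over the 8 libraries were sought, by the root mean square of the difference between centered log2(value + 5). Nearest to *Irf1* was *Gm17334* (0.098), which lies within *Irf1* on the opposite strand, so that both rows may hold reads of the same transcripts. Nearest to *Irf2* were *Tapbp* (0.067), which encodes tapasin, *Gm19412* (0.069), which shares 85.3% of its exons with *Tapbp*, and *Gm20496* (0.074), which shares 75.1% of its exons with *Psmb8*. For comparison, *Irf1* and *Irf2* varied by 0.476 and 0.250 about their own means.

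Nearest to *Irf4* were *B4galnt4* (0.172), *Zfp182* (0.178) and *Dock6* (0.201). *B4galnt4*, a glycosyltransferase gene, was at 395 and 193, 358 and 598, 976 and 1143, and 857 and 669 in control Tconvs, CD70Tg Tconvs, control Tregs and CD70Tg Tregs. Nearest to *Irf8* were *Apol10b* (0.187), *Pglyrp1* (0.188) and *Xkr6* (0.194). *Xkr6* was at 12 and 7, 18 and 28, 20 and 22, and 84 and 93 in the same order. It reached the minimum for the test only through the CD70Tg Treg libraries, the group in which *Irf8* was highest. Its likeness to *Irf8* may thus be set in part by this minimum. *Pglyrp1*, a peptidoglycan recognition protein gene, was at 751 and 549, 1441 and 2362, 1476 and 1542, and 3835 and 4187 in the same order, and shared with *Irf8* the overlap of CD70Tg Tconvs and control Tregs. *Irf4* and *Irf8* varied by 0.755 and 1.05 about their own means. These likenesses are over 8 libraries and carry no test.

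In GENCODE M21 (GRCm38), *Irf2* and *Irf8* lie on chromosome 8 at 46739732-46847458 and 120736358-120756694, and *Irf3* and *Irf7* on chromosome 7 at 44997648-45002848 and 141262706-141266481. *Irf1* lies on chromosome 11 at 53770014-53778374, *Irf4* on chromosome 13 at 30749226-30766976, *Irf5* on chromosome 6 at 29526625-29541871 and *Irf9* on chromosome 14 at 55603571-55610030. *Irf7* is on the minus strand and the others on the plus strand. Beside *Irf5*, exons are shared with a neighbor by *Irf1* (3.40% with *Gm17334*), *Irf3* (2.56% with *Bcl2l12*), *Irf7* (1.19% with *Phrf1*) and *Irf9* (2.28% with *Rnf31*), so that a few reads of these genes may have been assigned to either.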

How the data were processed

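RNA from sorted Tregs and Tconvs of control and CD70Tg mice was sequenced, 2 libraries per group. Per the methods and processing notes, the authors trimmed reads with Trimmomatic 0.36, mapped them to mm10 with STAR 2.5.3 and counted them with HTSeq 0.9.1. The deposited table holds a score, the count multiplied so that each library sums to about 20 M, then rounded to the next whole number (totals 19963628 to 20164600). Raw counts were not used here, and strand settings are not given in the sources used here. The control columns are those that the table calls KO and the sample descriptions WT. There were 0 columns of per-sample values left unused.

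The 4131 rows with clone-derived names were left out, and of rows with the same name the one with the largest total kept it. Genes at 60 or more in at least 2 libraries (12816) were tested on log2(value + 5) with limma 3.58.1 in R 4.3.3 (trend, prior degrees of freedom 12.3), with 1 coefficient per group and Benjamini-Hochberg adjustment within each contrast. Fold changes are on the log2(value + 5) scale. The procedure was tested on simulated data. The members, the gene lists and the alternatives were chosen with earlier results of these data known. As alternatives, the pseudocount was set to 1 or 20, the minimum was left out or replaced by a value above 10 in every library, and median-of-ratios factors, limma-voom on reads recovered from the steps, the clone-named rows, a fit of only the groups compared, an adjusted p-value under 0.01 and leaving out each library were tried. Leaving out libraries for the lists was added after seeing the data. Some genes that the lists or the rule for named genes cover are not reported here. Named genes were all members, the list genes that passed or define a list, and the 3 nearest profiles of each member that passed with CD70Tg. Other list genes (*Isg15*, *Spi1*) were named after their values were seen. Reads per library came from the steps between low values, which are less certain for the first control and the second CD70Tg Tconv libraries. Counting error is the only error that the value of 3 reads covers. Positions were taken from GENCODE M21, which held 99.7% of the gene identifiers, and promoter windows from RefSeq (GRCm38.p6).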

Additional observations from a re-analysis of the deposited data

Results flagged for a closer look

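The effect of CD70Tg on *Irf4* differed between the subsets by -1.39 on the log2 scale (Tregs minus Tconvs, limma adjusted p = 0.0334). Both CD70Tg Treg libraries were under both control Treg libraries, and both CD70Tg Tconv libraries were above both control Tconv libraries. Such a gap was seen in 31.2% of all genes tested for the first and in 23.7% for the second. The Treg change did not pass by itself (limma adjusted p = 0.0774), and the difference no longer passed in 10 of 16 other settings.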

How the results depend on the processing

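No paired analysis was possible because replicate numbers stand in the titles only and not in the column names. Over the 5 comparisons, 595 of the values of single members under other settings kept direction and side of the threshold, 38 lost significance, 16 gained it and 23 changed sign, the last only for values that did not pass. The counts of members went from 3 to 1 in Tregs, from 4 to 0 in Tconvs and from 1 to 0 for the difference when no minimum value was asked, and all genes from 948 to 261, from 1129 to 365 and from 131 to 0. With only the compared groups fitted, 5 members and 1615 genes passed in Tregs. With limma-voom on reads, 254 genes passed in Tregs, 2003 in Tconvs and 62 for the difference. At an adjusted p under 0.01 these were 388, 661 and 48, and 3598 of 5467 genes differed between CD70Tg subsets. The difference was lost for *Irf4* (0 members) with a pseudocount of 1, median-of-ratios factors, limma-voom and an adjusted p under 0.01. Without 1 library, members numbered 2 to 4 in Tregs, 2 to 6 in Tconvs, 0 to 1 for the difference, 3 to 5 between control subsets and 2 to 4 between CD70Tg subsets, and genes 300 to 1286, 524 to 1554, 62 to 269, 3700 to 6316 and 3780 to 5365.

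With median-of-ratios factors the difference changed sign to 0.028 for *Irf5* and 0.047 for *Irf7*, and *Irf3* became -0.008 between control subsets. Without 1 library, the Tconv changes ranged from -0.25 to 0.13 for *Irf3*, -0.06 to 0.28 for *Irf9* and -0.13 to 0.60 for *Irf5*. The difference ranged from -0.41 to 0.33 for *Irf5*, -0.33 to 0.28 for *Irf7*, -0.42 to 0.16 for *Irf1*, -0.13 to 0.66 for *Irf8* and -0.32 to 0.057 for *Irf3*. Between control subsets *Irf3* ranged from -0.001 to 0.24, *Irf9* from -0.18 to 0.16 and *Irf1* from -0.085 to 0.49, and between CD70Tg subsets *Irf3* from -0.20 to 0.18. The causes were not tested. A group left with 1 library is assumed to vary like the others. The shallowest library, a CD70Tg Treg library of 1.91 M reads, limits low genes rather than the members.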
